A study of Homo sapiens with 6 samples.

Results

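The integrated stress response (ISR) and the unfolded protein response (UPR) were followed through 37 genes in MDA-MB-231 cells, an established human triple-negative breast cancer line. The members were the rows of both deposited count tables whose gene symbol equalled a name on a written list of ISR and UPR genes, 37 of 42974 symbols. The rule used no measured value, though the list was drawn up with earlier results of these data known. They comprised 4 transcription factors of the ISR, 6 targets of ATF4 and CHOP, 2 regulatory subunits of the eIF2α phosphatase, 5 UPR sensors and their factors, 16 chaperones and folding enzymes of the secretory pathway, and 4 genes of endoplasmic reticulum (ER)-associated degradation. Polyadenylated RNA was sequenced in 2 experiments of 3 libraries each, and each condition had 1 library. In the first, cells stably infected with a GFP-marked lentiviral vector and sorted by FACS carried a scramble shRNA or 1 of 2 hairpins, named CDK16-sh1 and CDK16-sh2, directed against the atypical cyclin-dependent kinase CDK16. In the second, cells were treated for 48 h with DMSO, 1 μM rebastinib (Reb) or 5 μM Reb, a kinase inhibitor that the study used against CDK16 and that also acts on other kinases. The difference between any 2 libraries therefore has no replicate check.

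The ISR is set off when one of several kinases phosphorylates the translation factor eIF2α, which lowers general protein synthesis while the mRNA of the transcription factor ATF4 is translated more. The UPR is its counterpart for misfolded proteins in the ER and runs through the membrane sensors PERK (EIF2AK3), IRE1α (ERN1) and ATF6, which raise chaperones, folding enzymes and the machinery that removes failed proteins. The sensors act through phosphorylation, through splicing of the XBP1 mRNA and through cleavage of ATF6, and gene-level read counts measure none of these steps.

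Total counts ranged from 25838443 to 50303269 per library. CDK16 itself had 3223 counts with the scramble shRNA, 1360 with CDK16-sh1 and 846 with CDK16-sh2, log2 fold changes of -1.52 and -1.82. Under Reb, which was given against the protein, it had 4996, 4609 and 2797 counts (-0.14 at 1 μM and 0.27 at 5 μM). As a share of all counts CDK16 was lower at 5 μM than with DMSO, so its sign at that dose follows the scaling. VIM, CD44, AXL and CAV1, markers of this line, were detected in every library, between 3.95 and 833 RPKM (reads per kilobase of gene, scaled to library size). The estrogen and progesterone receptor genes ESR1 and PGR and the epithelial cadherin gene CDH1 did not exceed 0.174 RPKM in any library. ERBB2 and EPCAM, also counted as low in this line, were detected, ERBB2 at 2.56 to 6.54 RPKM and EPCAM at 1.55 to 4.3, and at 5 μM EPCAM (4.3) lay above CAV1 (3.95). Of 8 markers of other cell types the highest value was 0.406 RPKM. The 1 μM library held 35 counts of PTPRC and 53 of CDH1, where the DMSO library held 2 and 7. The share of counts from mitochondrially encoded genes was 16.2% in the CDK16-sh2 library and 16.4% in the 5 μM library, against 7.19% to 11.3% in the other 4, and the 100 most abundant genes took 35.3% of the counts at 5 μM and 24.3% with DMSO.

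Fold changes below are log2 ratios of CPM (counts scaled to a common library size) after TMM scaling. A prior count of 2 was added, and genes averaging less than 1 CPM in an experiment were left out. A 2-fold change, the threshold of the study's methods, was used as a size. The bracketed ranges are 95% Clopper-Pearson intervals, which cover counting error only and say nothing of the variation between cultures. In bulk RNA, fewer cells that express a gene and less of its RNA per cell cannot be told apart.

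Many UPR genes are known to carry the ER stress response element (ERSE) in the promoter, the letters CCAAT, any 9 bases and CCACG, bound by ATF6 with NF-Y. A shorter form (ERSE-II) reads ATTGG, any 1 base and CCACG. Promoter windows from 250 bases before to 50 bases after each annotated start were taken from RefSeq (GRCh38.p14), which gave 47 windows for 35 of the 37 genes, and both strands were searched for exact matches. An ERSE stood in 10 of the 47 windows (21.3%), in the promoters of CALR, CANX, CRELD2, HSP90B1, HSPA5, PDIA6, SERP1 and XBP1, against 0.0769% of all 35116 windows. An ERSE-II stood in 3 of them (6.38%), those of HERPUD1, HYOU1 and SDF2L1, against 0.0541%. The sites below were chosen because 4 belong to genes that were at least 2-fold higher at 5 μM Reb (PDIA6, CANX, HSP90B1, HYOU1), 3 to genes at least 2-fold lower (XBP1, HERPUD1, SDF2L1) and 1 to HSPA5, the classical UPR reporter. Each is written 5′ to 3′ on the gene's own strand, and the capitals mark the fixed letters of the element, read as the reverse complement in HYOU1 and SDF2L1.
PDIA6: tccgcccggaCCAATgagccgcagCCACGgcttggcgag
CANX: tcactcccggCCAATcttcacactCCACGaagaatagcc
HSP90B1: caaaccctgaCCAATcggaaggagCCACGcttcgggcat
HSPA5: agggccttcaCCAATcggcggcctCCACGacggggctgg
XBP1: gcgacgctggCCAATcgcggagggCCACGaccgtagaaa
HYOU1: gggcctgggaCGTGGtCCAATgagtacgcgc
HERPUD1: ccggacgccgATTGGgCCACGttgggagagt
SDF2L1: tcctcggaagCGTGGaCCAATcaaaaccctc

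On GRCh38.p14 these stretches lie at chr2:10812843-10812881 (minus strand) for PDIA6, chr5:179698768-179698806 (plus) for CANX, chr12:103930206-103930244 (plus) for HSP90B1 and chr9:125241381-125241419 (minus) for HSPA5. The others lie at chr22:28800593-28800631 (minus) for XBP1, chr11:119057264-119057294 (minus) for HYOU1, chr16:56932015-56932045 (plus) for HERPUD1 and chr22:21642104-21642134 (plus) for SDF2L1. The element began 66 bases before the start in HSPA5, 52 in XBP1, 86 in PDIA6, 194 in HSP90B1, 151 in CANX, 79 in HYOU1, 117 in HERPUD1 and 188 in SDF2L1. HSP90B1 and HYOU1 each held a further copy in the window. Of the other letters searched, TGACGTGG, the element of ATF6 and XBP1, stood in 1 of the 47 windows (2.13%), that of HYOU1, where it overlapped the further ERSE-II, against 0.729% of all windows. TGATGNAA, the element shared by C/EBP and ATF factors such as ATF4, stood in 3 of the 47 (6.38%), those of CHAC1, HERPUD1 and PPP1R15B, against 3.62%. A match is a string of letters and was not tested for binding.

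Per length, the 2 most abundant members in each control were chaperones. CALR, the calcium-binding lectin chaperone calreticulin, led in both controls with 866 RPKM with the scramble shRNA and 1159 with DMSO, followed by the ER HSP90 paralogue HSP90B1 (313 and 530). Next came ATF4 with the scramble shRNA (281) and CANX, the membrane lectin calnexin, with DMSO (307). The lowest levels were those of the secreted glycoprotein gene STC2 (0.0316 and 0.282) and of NUPR1, a small stress-induced nuclear protein (0.136 and 0.14). The tables of the 2 experiments were processed separately, so a level in one is given beside the other for orientation only. Together the members took 0.962%, 0.953% and 0.916% of the counts with the scramble shRNA, CDK16-sh1 and CDK16-sh2, and 1.23%, 1.31% and 1.52% with DMSO, 1 μM and 5 μM Reb.

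**Figure D1:**
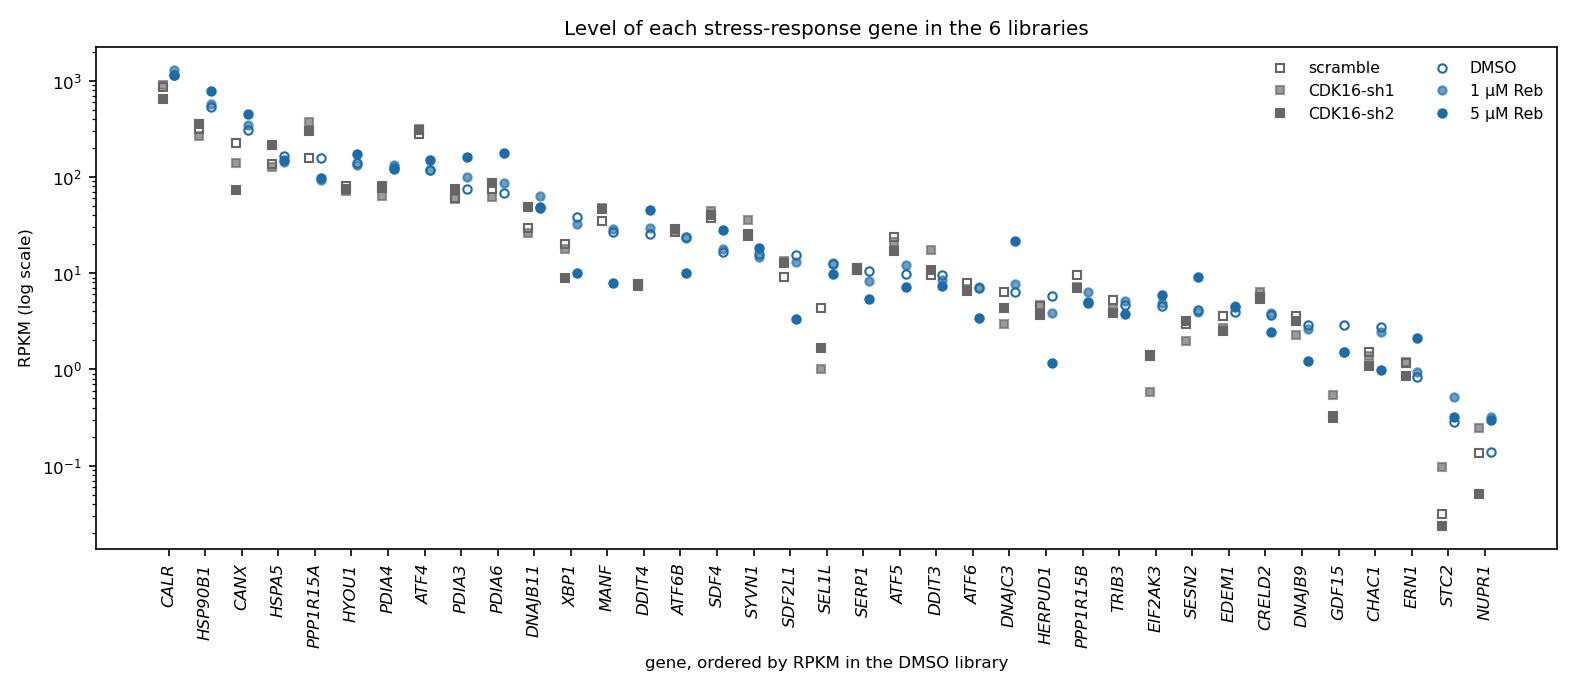
RPKM (log scale) of the 37 genes in the 6 libraries, ordered by the level in the DMSO library, 1 point per library. CALR was highest in both controls, at 866 RPKM with the scramble shRNA and 1159 with DMSO, and the order runs down to NUPR1 at 0.14 with DMSO.

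In the CDK16 knockdown, few members moved by 2-fold and those that did were mostly lower. Of the 34 members that averaged 1 CPM or more, 1 was at least 2-fold higher with CDK16-sh1 (2.94%, where 4.33% of all 15295 genes were) and 3 were at least 2-fold lower (8.82%, against 6.86% of all genes). With CDK16-sh2 the counts were also 1 and 3, against 2.2% and 7.62% of all genes. The median member stood at -0.12 with CDK16-sh1 and 0.13 with CDK16-sh2, where the median of all genes was 0 and 0.02. NUPR1, GDF15 and STC2 were under the minimum, with 4 to 45 counts per library. These shares lay near those of all genes. The 2 hairpins share the scramble library, so an error in that library would move both comparisons alike.

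The edgeR quasi-likelihood fit that took both hairpins as 1 group called 0 of the 34 members and 0% of all genes in either direction at the 0.05 limit for the adjusted p-value. At an unadjusted p below 0.05 it gave 382 genes, 2 of them members, and DESeq2 also called 0, with 233 genes below 0.05. The member with the lowest unadjusted p was SEL1L, at 0.00277 in edgeR. The smallest adjusted p-value over all genes was 0.195.

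PPP1R15A was the member at least 2-fold higher with each hairpin. It encodes GADD34, which brings protein phosphatase 1 to eIF2α and so ends the ISR. Its counts were 12726 with the scramble shRNA, 36604 with CDK16-sh1 and 25572 with CDK16-sh2, or 469, 1113 and 1014 CPM. The log2 fold changes were 1.25 (1.22 to 1.28) and 1.11 (1.08 to 1.14). After correction for GC content and length the CDK16-sh1 value was 0.85, and scaled by library totals the CDK16-sh2 value was 0.92, both under 2-fold. The constitutive subunit of the same phosphatase, PPP1R15B, stood at -0.41 and -0.27.

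SEL1L, the adaptor of the HRD1 ubiquitin ligase in ER-associated degradation, was at least 2-fold lower with both hairpins. It had 1061 counts with the scramble shRNA, 305 with CDK16-sh1 and 435 with CDK16-sh2, or 39.1, 9.27 and 17.2 CPM. The log2 fold changes were -2.07 (-2.26 to -1.89) and -1.18 (-1.34 to -1.02). Its partner SYVN1, the HRD1 ligase itself, stood at 0.6 and 0.27, and HERPUD1, a scaffold of the same complex, at 0.07 and -0.11. EDEM1, which hands mannose-trimmed glycoproteins to degradation, stood at -0.38 and -0.34.

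The other 4 falls past 2-fold each belonged to 1 hairpin. EIF2AK3, the gene of PERK, had 197, 101 and 206 counts with the scramble shRNA, CDK16-sh1 and CDK16-sh2, a log2 fold change of -1.22 (-1.6 to -0.89) and of 0.17 (-0.12 to 0.46). DNAJC3, whose protein p58IPK is a co-chaperone of the ER lumen and an inhibitor of eIF2α kinases, had 928, 529 and 675 counts (-1.08, from -1.24 to -0.93, and -0.35). With CDK16-sh2 only, XBP1, the transcription factor activated by IRE1α, had 733 counts against 1590 with the scramble shRNA and 1725 with CDK16-sh1, or -1.01 (-1.14 to -0.88) and -0.16. CANX had 36307, 27835 and 12450 counts, or -0.66 with CDK16-sh1 and -1.44 (-1.47 to -1.41) with CDK16-sh2. After the GC and length correction EIF2AK3 (-0.98), DNAJC3 (-0.69), XBP1 (-0.92) and, with CDK16-sh2, SEL1L (-0.88) were each under 2-fold. The hairpins parted on EIF2AK3, which was 1.39 (1.06 to 1.77) higher on the log2 scale with CDK16-sh2 than with CDK16-sh1, and on DNAJB11, an ER co-chaperone of BiP, at 1.05 (1 to 1.1). These were the 2 members at least 2-fold higher in that comparison, where 6.53% of all genes were, and 0 were at least 2-fold lower, against 8.68%.

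ATF4, DDIT3, HSPA5, ERN1, ATF6 and ATF6B lay within 2-fold of the scramble library with both hairpins. ATF4, the transcription factor of the ISR, had 18243, 25570 and 21376 counts (0.21 and 0.34). DDIT3, which encodes the proapoptotic factor CHOP, had 315, 694 and 378 (0.86, from 0.67 to 1.06, and 0.37), and shares 28% of its exon bases with MARS on the opposite strand. The BiP gene HSPA5, the main HSP70 chaperone of the ER, had 13845, 15734 and 23317 counts, or -0.09 and 0.86. IRE1α (ERN1) stood at 0.05 and -0.24, ATF6 at -0.18 and -0.08 and its paralogue ATF6B at 0.1 and 0.29. With CDK16-sh2, 13 of the 16 chaperone and folding genes were above the scramble library, among them DNAJB11 at 0.93 and SDF2L1, a cofactor of BiP, at 0.7, while 8 of the 16 were above it in the ratio of the deposited RPKM, which scales by library totals. With CDK16-sh1, 6 of the 16 were above it (5 in RPKM). Of all 15295 genes, 7867 were above it with CDK16-sh2 and 7627 with CDK16-sh1. In RPKM with 0.1 added, the median gene stood at -0.17 with CDK16-sh2 and -0.03 with CDK16-sh1.

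**Figure D2:**
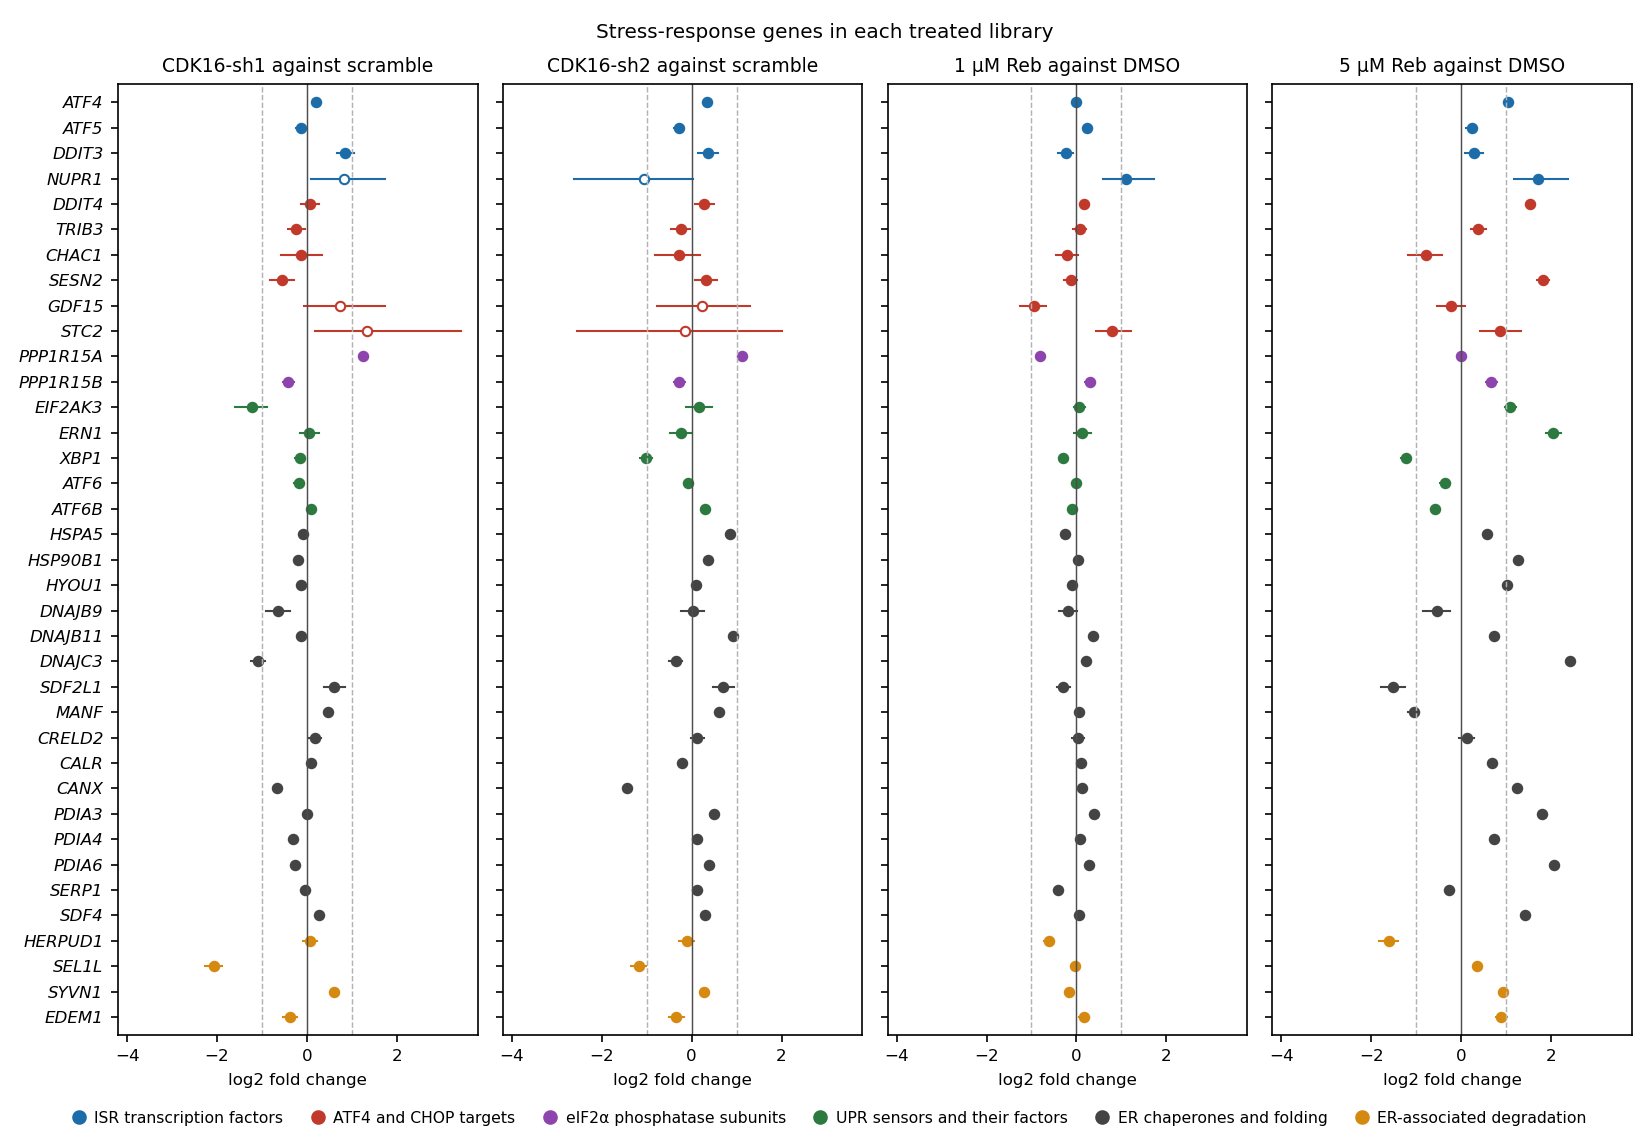
Log2 fold change of each gene in each treated library against its own control, 1 point per gene, coloured by role, with 95% counting intervals as bars (most are narrower than the point). Open points mark the 3 genes under 1 CPM in the knockdown experiment, and dashed lines mark 2-fold. At 5 μM Reb 13 genes lie beyond the upper line and 4 beyond the lower, against 1 and 0 at 1 μM.

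With 1 μM Reb, the members hardly departed from DMSO. NUPR1 was the 1 member of 37 at least 2-fold higher (2.7%, where 1.28% of all 15655 genes were), and 0 were at least 2-fold lower, against 1.92%. Its counts were 40, 90 and 63 with DMSO, 1 μM and 5 μM, or 0.688, 1.52 and 2.34 CPM, so that its log2 fold changes of 1.1 (0.59 to 1.72) and 1.7 (1.17 to 2.37) rest on few reads. In the ratio of the deposited RPKM the values were 1.2 and 1.08. With 0.1 added to each RPKM both were under 2-fold, 0.81 and 0.72, where the DMSO level was 0.14 RPKM. The median member stood at 0.04 and the median gene at 0. The other 36 members lay between -0.95 and 0.8. The outermost were the cytokine gene GDF15 (-0.95, 300 and 157 counts), PPP1R15A (-0.81, 24326 and 14124 counts) and STC2 (0.8, 87 and 156 counts).

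With 5 μM Reb, 13 of the 37 members were at least 2-fold higher than DMSO (35.1%) and 4 were at least 2-fold lower (10.8%). The whole transcriptome had moved widely at this dose, and 23.6% of all genes were at least 2-fold higher and 27.2% at least 2-fold lower. The median member stood at 0.69 and the median gene at -0.07. The scaling matters here. By library totals, 6 members were at least 2-fold higher and 8 at least 2-fold lower, the median member stood at 0 and the median gene at -0.75. The shares of all genes past 2-fold were computed with TMM only, so the 6 and 8 cannot be set against 23.6% and 27.2%. The distance between the median member and the median gene was 0.76 with TMM and 0.75 with library totals, which shift all genes alike, but 0.49 without a filter on low counts and 0.38 after correction for mean expression and length. All 17 members past 2-fold kept their sign under the 9 alternatives tried, but library totals put each 5 μM value lower by a near-constant amount, as from 2.43 to 1.74 for DNAJC3. Upper quartile scaling, RPKM and no filter also lowered the 5 μM values, so such settings could not undo a fall. ATF4 and HYOU1 stayed past 2-fold in 3 of the 9, EIF2AK3 and HSP90B1 in 4 and CANX in 5. SDF4 did so in 6, DDIT4 in 7 and NUPR1 in 8. The other members past 2-fold stayed so in all 9. Against the 1 μM library, 13 members were at least 2-fold higher at 5 μM and 2 at least 2-fold lower, where 22.8% and 25.8% of all genes were.

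**Figure D3:**
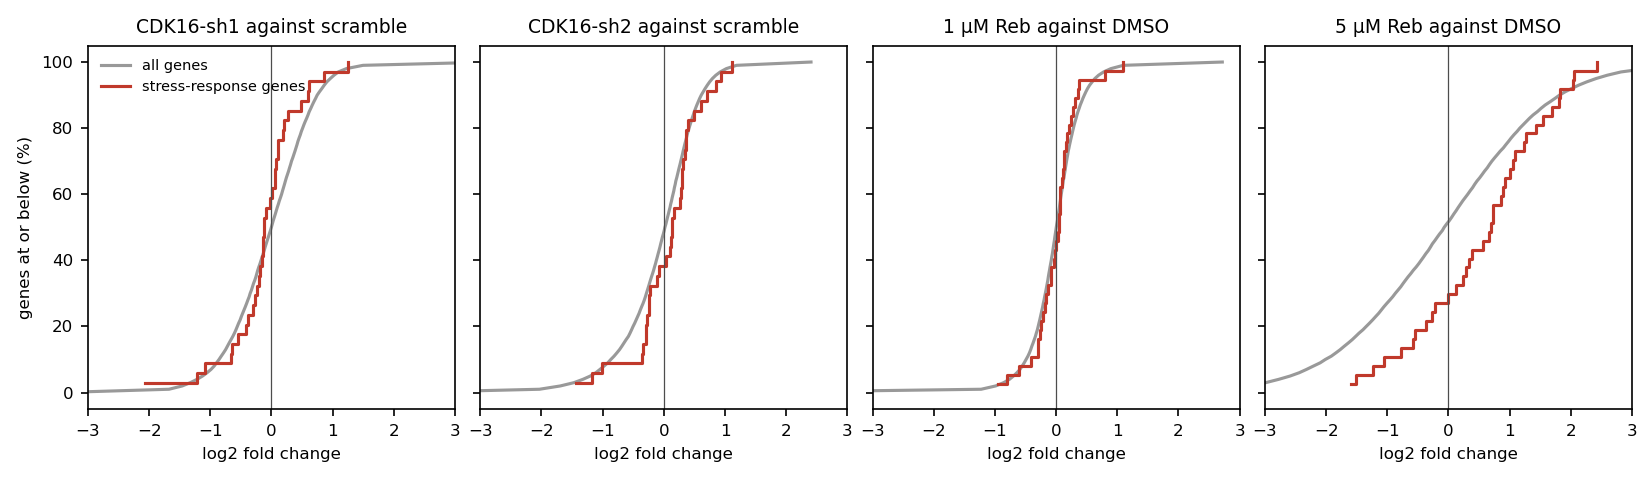
Cumulative share of genes (%) at or below each log2 fold change, for the tested stress-response genes (red) and all tested genes (grey), in each treated library. At 5 μM Reb the red line lies to the right of the grey, with medians of 0.69 and -0.07, and in the other 3 libraries the medians are within 0.12 of each other.

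At 5 μM, 2 of the 4 transcription factors of the ISR were past 2-fold, NUPR1 (above) and ATF4. The ATF4 counts were 14770, 14811 and 14145 with DMSO, 1 μM and 5 μM, or 254, 251 and 524 CPM, a log2 fold change of 1.05 (1.01 to 1.08). Its value was 0.36 with library totals, 0.32 after correction for mean expression and length and 1.29 after that for GC content and length. Its pseudogene copies held at most 1.32% as many counts as ATF4 in any library. DDIT3 had 616, 530 and 349 counts and stood at 0.29 (0.09 to 0.48), which turned to -0.4 with library totals. ATF5, a relative of ATF4 under similar translational control, stood at 0.23 and turned to -0.46 in RPKM.

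Of the 6 targets of ATF4 and CHOP, SESN2 and DDIT4, both known inhibitors of mTORC1 signalling, were at least 2-fold higher. SESN2 had 720, 669 and 1183 counts with DMSO, 1 μM and 5 μM, or 12.4, 11.3 and 43.9 CPM (1.82, from 1.69 to 1.96). DDIT4 had 2634, 2987 and 3543 counts, or 45.3, 50.5 and 131 CPM (1.54, from 1.46 to 1.61, and 0.84 with library totals). The 1 μM library lay near DMSO for both genes and the 5 μM library apart. The other 4 targets ranged from -0.78 to 0.86. CHAC1, a glutathione-degrading enzyme, was at the low end with 284, 250 and 76 counts, and the pseudokinase gene TRIB3 stood at 0.38, which turned to -0.3 in RPKM. DDIT4 shares 41.2% of its exon bases with an antisense gene, and whether reads were assigned by strand is not given in the sources used here.

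The phosphatase subunits stayed within 2-fold at 5 μM. PPP1R15A, higher with both hairpins, had 24326, 14124 and 11267 counts with DMSO, 1 μM and 5 μM, or 418, 239 and 418 CPM, so that its log2 fold change at 5 μM was 0 (-0.03 to 0.03) after -0.81 at 1 μM. PPP1R15B stood at 0.67, and at -0.02 in RPKM.

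Among the sensors and their factors, the genes of the 2 kinases and that of XBP1 went opposite ways. ERN1 had 456, 507 and 873 counts with DMSO, 1 μM and 5 μM, or 7.84, 8.58 and 32.4 CPM (2.04, from 1.88 to 2.21). EIF2AK3 had 1232, 1307 and 1219 counts, or 21.2, 22.1 and 45.2 CPM (1.09, from 0.98 to 1.21). Both were near DMSO at 1 μM and higher at 5 μM, and EIF2AK3 stood at 0.4 with library totals. In contrast, XBP1 had 5768, 4795 and 1133 counts, or 99.2, 81.1 and 42 CPM (-0.29 at 1 μM and -1.24, from -1.33 to -1.15, at 5 μM). Under all 9 alternatives it was at least 2-fold lower, but several of these lower every 5 μM value and could not undo a fall. It stood at -1.6 after correction for mean expression and length and at -1.73 after that for GC content and length. ATF6 had 2796, 2829 and 1008 counts (-0.36, from -0.47 to -0.26) and ATF6B 4406, 4204 and 1370 (-0.58, from -0.67 to -0.49). Both lay under the DMSO library in all 9 alternatives, at -1.05 and -1.27 with library totals, one of the settings that could not undo a fall. They stood at -0.35 and -0.83 after correction for mean expression and length. After that for GC content and length they stood at -0.55 and -0.08.

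Of the 16 chaperone and folding genes, 7 were at least 2-fold higher at 5 μM and 2 at least 2-fold lower, with a group median of 0.73. DNAJC3 had the largest log2 fold change of the 37 members with TMM scaling, but not under every alternative. Another member changed by more with library totals (HERPUD1, -2.29) and after correction for mean expression and length (ERN1, 2.37). The same held after the GC and length correction (ERN1, 2.42). DNAJC3 went from 1809 counts in the DMSO library through 2130 at 1 μM to 4519 at 5 μM, or 31.1, 36 and 168 CPM (2.43, from 2.35 to 2.51). The protein disulfide isomerase genes PDIA6 and PDIA3 followed. PDIA6 had 14119, 17449 and 27344 counts, or 243, 295 and 1014 CPM (2.06, from 2.03 to 2.09). PDIA3, the isomerase that works with calnexin and calreticulin, had 15830, 20941 and 25583 counts, or 272, 354 and 948 CPM (1.8, from 1.77 to 1.83). These 3 stayed at least 2-fold higher under all 9 alternatives. SDF4, a calcium-binding protein of the Golgi lumen, had 3933, 4143 and 4926 counts (1.43, from 1.37 to 1.49, and 0.74 with library totals).

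The most abundant chaperones were higher by less. HSP90B1 had 124906, 130877 and 139137 counts with DMSO, 1 μM and 5 μM (1.26, from 1.25 to 1.27), CANX had 96311, 106848 and 105299 (1.24, from 1.22 to 1.25), and HYOU1, an HSP70-like chaperone that recharges BiP, had 53424, 51014 and 49804 (1.01, from 0.99 to 1.02). With library totals these 3 stood at 0.57, 0.55 and 0.32, under 2-fold. After correction for mean expression and length they stood at 0.47, 0.53 and 0.42, also under 2-fold. HSP90B2P, a pseudogene copy of HSP90B1, had 43, 79 and 1545 counts, at most 1.11% of the counts of HSP90B1. HSPA5 had 32170, 27317 and 22176 counts, or 553, 462 and 822 CPM. Its log2 fold change was -0.26 at 1 μM and 0.57 (0.55 to 0.6) at 5 μM. The 5 μM value was -0.12 with library totals and -0.07 after correction for mean expression and length. The direction for BiP thus hung on the processing. DNAJB11 (0.73), PDIA4 (0.73) and CALR (0.69) were above DMSO with TMM and within 0.04 of it in RPKM.

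SDF2L1 and MANF were the 2 folding genes at least 2-fold lower. SDF2L1 had 857, 713 and 139 counts with DMSO, 1 μM and 5 μM, or 14.7, 12.1 and 5.15 CPM (-1.51, from -1.79 to -1.26). MANF, which encodes an ER protein that is secreted under stress, had 2811, 2980 and 623 counts, or 48.3, 50.4 and 23.1 CPM (-1.06, from -1.19 to -0.94). Both were at least 2-fold lower under all 9 alternatives, several of which lower every 5 μM value and could not undo a fall. They stood at -1.78 and -1.44 after correction for mean expression and length. After that for GC content and length they stood at -1.65 and -1.18. DNAJB9, a co-chaperone that restrains IRE1α, had 410, 366 and 130 counts (-0.55), SERP1, a membrane protein bound to the translocon, stood at -0.27, and CRELD2, an ER stress-inducible protein with a disulfide isomerase motif, at 0.12.

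In ER-associated degradation, HERPUD1 was the 1 gene of 4 past 2-fold. Its counts were 1486, 989 and 226 with DMSO, 1 μM and 5 μM, or 25.6, 16.7 and 8.38 CPM, and stood at -0.61 (-0.73 to -0.49) and -1.6 (-1.82 to -1.41). HERPUD1 was at least 2-fold lower at 5 μM under all 9 alternatives, several of which lower every 5 μM value and could not undo a fall. It stood at -1.4 after correction for mean expression and length and at -1.46 after that for GC content and length. In the 1 μM library it already lay under DMSO. SYVN1 (0.92), EDEM1 (0.89) and SEL1L (0.34) were above DMSO with TMM, and SEL1L turned to -0.35 in RPKM. SEL1L, more than 2-fold lower with both hairpins, had 5988, 5961 and 3526 counts in the 3 Reb libraries.

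**Figure D4:**
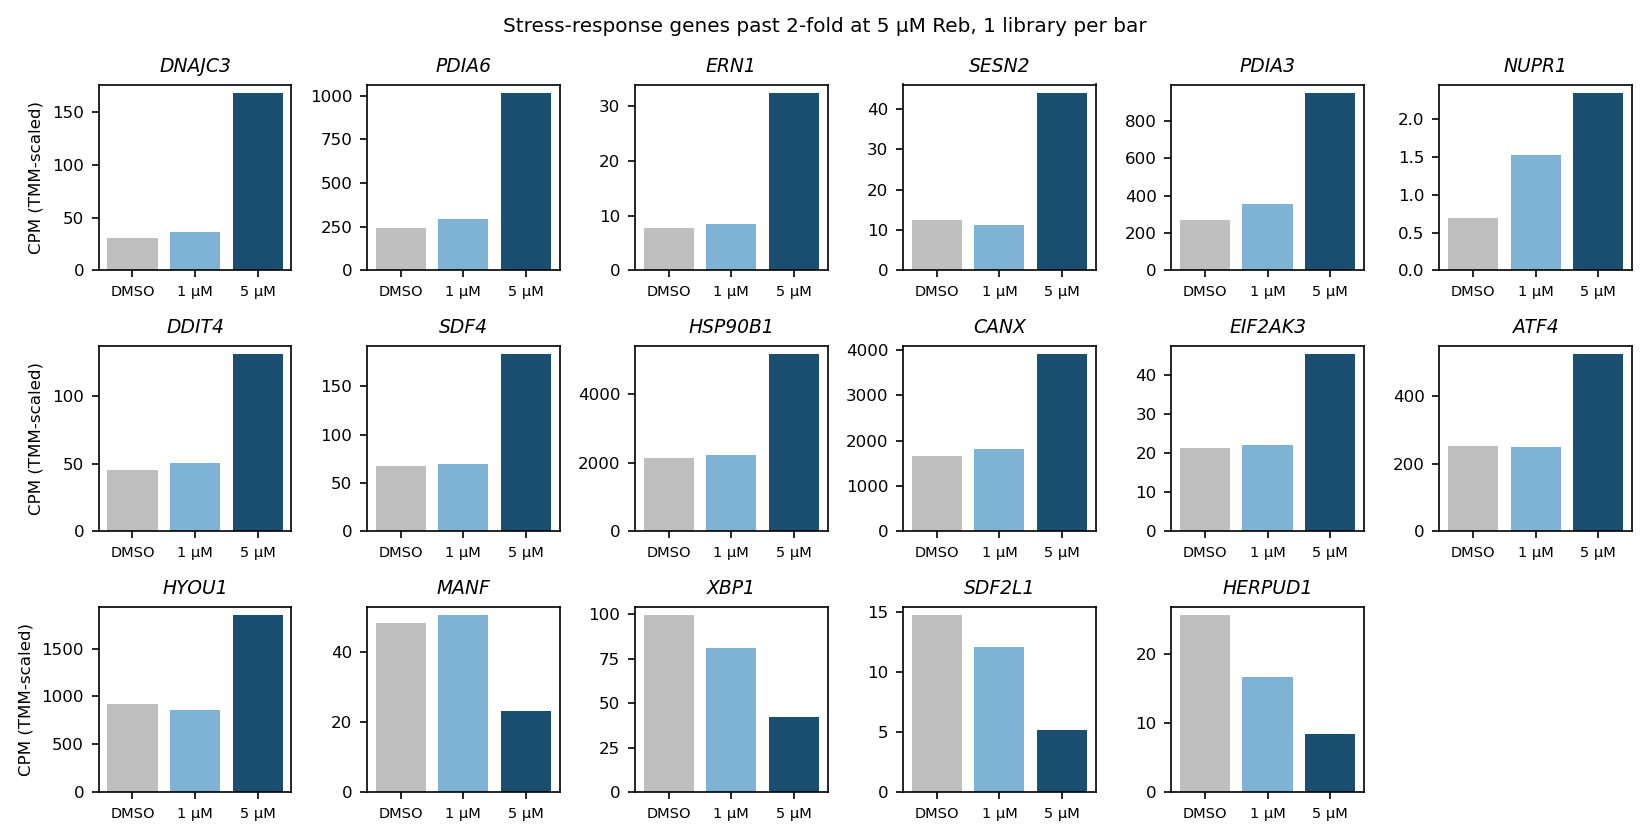
TMM-scaled CPM of the 17 genes past 2-fold at 5 μM Reb, ordered from the highest to the lowest log2 fold change, 1 bar for each of the DMSO, 1 μM and 5 μM libraries. Each vertical axis starts at 0 and has its own scale. For DNAJC3 the bars are 31.1, 36 and 168 CPM, and for HERPUD1 25.6, 16.7 and 8.38.

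Genes with the same promoter element stood on both sides of DMSO. The 11 genes with an ERSE or ERSE-II ranged from -1.6 (HERPUD1) to 2.06 (PDIA6) at 5 μM, with a median of 0.57, and 4 of them were at least 2-fold higher and 3 at least 2-fold lower. The 24 genes whose windows held neither had a median of 0.7, with 7 at least 2-fold higher and 1 at least 2-fold lower. XBP1 and PDIA6, each with an ERSE less than 100 bases before the start, stood at -1.24 and 2.06, and HYOU1 and SDF2L1, each with an ERSE-II on the same strand orientation, at 1.01 and -1.51.

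The fit across the Reb libraries that took both doses as 1 group called 0 of the 37 members, where 0.0703% of all genes were called higher and 0.00639% lower, and 0 members reached an unadjusted p below 0.05. DESeq2 likewise called 0 members. In that fit the difference between the doses counts as spread, and of the members only NUPR1 was past 2-fold at 1 μM. With dose as a linear term on log2(dose + 1), edgeR called 7 members higher (DNAJC3, ERN1, SESN2, PDIA6, PDIA3, DDIT4 and SDF4) and 0 lower, where 13.3% of all genes were called higher and 11.1% lower. The lowest adjusted p-value was that of DNAJC3 (0.00112), and the nearest above the threshold was that of HERPUD1 (0.0524), with a log2 change of -1.61 from 0 to 5 μM. The spread in this fit is the departure of 3 libraries from a straight line. At 1 μM the 7 members lay between -0.13 (SESN2) and 0.38 (PDIA3), so their calls rest mostly on the 5 μM library. The dose fit was run with TMM scaling only.

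Properties of the genes moved with the 5 μM values. Over all genes, the median log2 fold change went from 0.41 in the fifth with the lowest GC content to -0.59 in that with the highest. In the same bins the members' medians were 0.54 and 0.23. It also went from -0.17 in the fifth with the lowest mean CPM to 0.4 in the highest, which held 18 of the 37 members, with a median of 0.97. After correction for mean expression and length, 11 members were at least 2-fold higher and 4 at least 2-fold lower and the median was 0.32. After that for GC content and length, the counts were 14 and 5 and the median 0.85. In the CDK16-sh1 library the GC trend ran the other way, from -0.43 to 0.42, and after correction for it and for length SEL1L (-1.56) was the 1 member at least 2-fold lower and 0 were higher.

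The other genes of these pathways were followed through 8 further lists, to be read against the 23.6% of all genes that were at least 2-fold higher at 5 μM and the 27.2% that were lower. Over the 8 lists, 30.9% were higher and 14% lower. At 5 μM Reb, 8 of 16 other ISR and CHOP targets were at least 2-fold higher and 4 lower (median 1.08). The transcription factors CEBPG, with 1685, 2050 and 13550 counts, and ATF3, with 320, 388 and 2527, led at 4.11 and 4.08, and the proapoptotic BH3 gene BCL2L11 stood at 2.24. Of 19 tested ATF4 target genes of amino acid supply, 7 were higher and 3 lower (median 0.36), with asparagine synthetase ASNS at 2.02 and the neutral amino acid transporters SLC1A5 and SLC1A4 at -1.91 and -1.79. Of 13 genes of cytosolic tRNA charging and export, 3 were higher (23.1%) and 4 lower (30.8%), with a median of -0.3, among them MARS (-1.64), YARS (-1.61) and XPOT (-1.47). The amino acid and tRNA genes, which ATF4 is known to control, thus stood on both sides of DMSO. Of 11 eIF2 kinases and subunits of eIF2 and its exchange factor eIF2B, 0 were higher and 2 lower (median -0.85), the eIF2B subunit EIF2B5 at -1.43 and the amino acid-sensing kinase EIF2AK4 at -1.29, with EIF2B4 at -0.96.

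Of 18 other ER folding genes, 5 were higher and 1 lower at 5 μM (median 0.51), with DNAJC1 at 1.8, TXNDC5 at 1.43 and the disulfide isomerase P4HB at 1.2. Of 25 genes of the ER translocon and of transport out of the ER, 6 were higher (24%) and 2 lower (8%, median 0.3), with the signal peptidase subunit SEC11C at 2.07, the channel subunit SEC61G at 1.69 and the signal recognition particle receptor SRPRA at -1.61. Of 17 tested other genes of ER-associated degradation, 6 were higher and 3 lower (median 0.19), led by the ubiquitin ligase gene RNF139 (3.58) and by DERL1 (2.69). Of 17 cytosolic heat shock genes, 7 were higher and 0 lower (median 0.43), with the HSP90 co-chaperone CHORDC1 and the HSP70 gene HSPA1B both at 1.76 and HSPA1A at 1.51. HSPA1A and HSPA1B are near-identical copies, and their split of reads is uncertain. These medians and counts also follow the scaling. In the ratio of the deposited RPKM, 2 of the heat shock genes were at least 2-fold higher and 6 lower. Of the eIF2 genes 0 were higher and 8 lower. No list then had more genes higher than lower, and the share of all genes was not computed on that scale. In the ratio of the deposited RPKM the medians were 0.39 for the other ISR and CHOP targets, -0.33 for the amino acid genes, -0.99 for the tRNA genes, -1.54 for the eIF2 genes, -0.17 for ER folding, -0.39 for the translocon, -0.5 for ER-associated degradation and -0.26 for the heat shock genes. In RPKM with 0.1 added the median gene stood at -0.71, so only the tRNA and eIF2 lists lay below it. At 1 μM, 1 of the 136 genes over the 8 lists was at least 2-fold higher (0.735%, against 1.28% of all genes). At least 2-fold lower were 2 (1.47%, against 1.92%), so both shares lay near those of all genes.

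In the knockdown, 4 of the 136 tested list genes were at least 2-fold higher with CDK16-sh1 (2.94%, against 4.33% of all genes) and 10 lower (7.35%, against 6.86%). With CDK16-sh2 0 were higher (0%, against 2.2%) and 5 lower (3.68%, against 7.62%). The genes named here were picked for a change in the same direction with both hairpins, which share the scramble library, so their direction does not stand for their list. PSAT1, of serine synthesis, had 1334, 767 and 381 counts with the scramble shRNA, CDK16-sh1 and CDK16-sh2 (-1.07 and -1.7), and MTHFD2 stood at -0.64 and -0.61 and ALDH18A1 at 0.39 and 0.7. EDEM3, a mannosidase of ER-associated degradation, had 750, 343 and 89 counts (-1.4 and -2.94), the selenoprotein gene VIMP stood at 0.54 and 0.45 and FAF2 at -0.32 and -0.39. TRAM1, of the translocon, stood at -1.59 and -0.84, SEC24D at -0.68 and -0.91 and SRPRB at 0.49 and 0.83. Among other ISR and CHOP targets the translation repressor EIF4EBP1 stood at 0.87 and 0.76, JDP2 at -1.18 and -0.6 and the proapoptotic BBC3 at 1.29 and 0.6. The cytosolic chaperones HSP90AA1 (-1.02 and -0.48), HSPA1B (-0.25 and -0.22) and DNAJA1 (-0.25 and -0.19) lay under the scramble library, where 11 of the 17 heat shock genes were above it with CDK16-sh2 and 4 with CDK16-sh1. In ER folding ERO1B stood at -0.85 and -0.83, UGGT1 at -0.86 and -0.47 and PPIB at 0.46 and 0.71. EIF2B4 (0.96 and 0.52), EIF2B5 (0.35 and 0.86) and EIF2AK1 (0.22 and 0.37) lay above the scramble library. The tRNA synthetases CARS, SARS and AARS lay between 0.18 and 0.5. Of the 13 genes of their list, 6 were above the scramble library with CDK16-sh1 and 10 with CDK16-sh2. Of all 15295 genes, 7627 were above it with CDK16-sh1 and 7867 with CDK16-sh2.

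**Figure D5:**
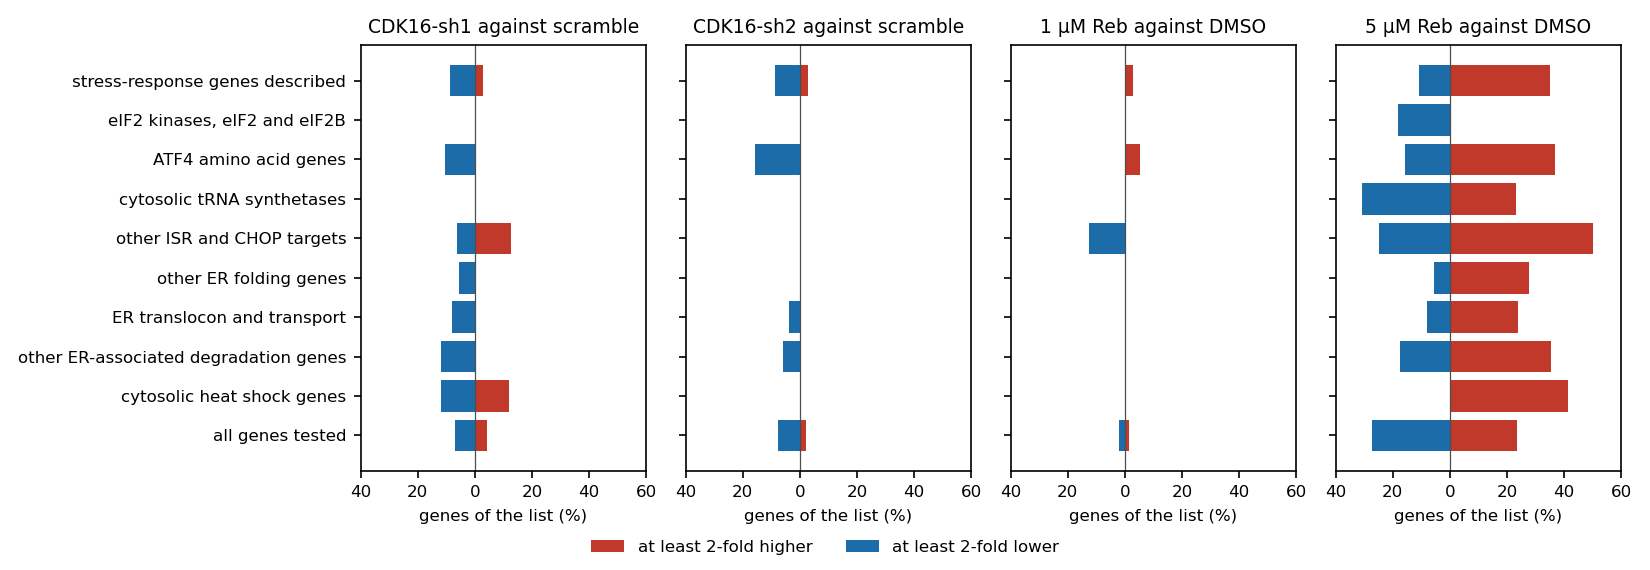
Share of the tested genes of each list (%) at least 2-fold higher (red, to the right) or lower (blue, to the left) than the control, in each treated library, with the described genes in the top row and all tested genes in the bottom row. At 5 μM Reb the described genes stand at 35.1% higher and 10.8% lower, and all genes at 23.6% and 27.2%.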

How the data were processed

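MDA-MB-231 libraries of stranded mRNA were sequenced on a HiSeq X 10 instrument. The deposited tables hold the authors' whole-number read counts per gene symbol, without normalization, and the authors' RPKM values per gene length and per library total. The submitters' processing notes name Trimmomatic, featureCounts, Subread 1.5.1 and GRCh38. The aligner's settings, the annotation and the strand setting of the counting are not given in the sources used here. Of the members, 7 of 37 (ATF5, DDIT3, DDIT4, EIF2AK3, DNAJB11, PDIA3 and PDIA6) share at least 10% of their exon bases with a gene on the opposite strand and 0 with one on the same strand, by the deposited coordinates.

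Counts were scaled with TMM in edgeR 4.0.16 (R 4.3.3), after genes averaging less than 1 CPM were left out (15295 and 15655 genes stayed), and log2 fold changes took a prior count of 2. Clopper-Pearson intervals at 95% were computed on the split of a gene's counts between a pair of libraries. Without molecular identifiers, PCR copies cannot be told from molecules, so the intervals cover counting error only. With 1 library per condition no comparison of a single library has a test, and the tests are those of edgeR's quasi-likelihood fit with both treated libraries as 1 group (Benjamini-Hochberg adjusted p of at most 0.05 and 2-fold), so their p-values measure only the spread between those libraries. The fit with both treated libraries as 1 group was run on simulated data in which both carried the same change. The Reb doses differed from each other, so that setting does not cover them, and the fit on dose was not simulated. DESeq2 1.42.0 was an alternative. The members and lists were chosen with earlier results of these data known. Members past 2-fold, the sensors, ATF4, XBP1, DDIT3 and HSPA5 were named with their counts, and of each further list up to 3 genes per experiment, those with the largest change at 5 μM or with the largest smaller change of the hairpins in the same direction. One gene that this rule would name is not reported here. HSP90B2P and members named within 2-fold beyond these were chosen after their values were seen. GC content came from the longest GENCODE 29 transcript, known for 84.6% and 84.3% of the tested genes and for every member. Promoters came from RefSeq (GRCh38.p14).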

Additional observations from a re-analysis of the deposited data

How the results depend on the processing

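No paired analysis was possible because each condition had 1 library. Leaving out a library leaves no spread to estimate, so the value of each treated library stands in its place. The alternatives for single libraries were DESeq2 size factors, library totals with and without mitochondrially encoded genes, upper quartile scaling, RPKM with 0.1 added, a prior count of 0.5, no filter on low counts and the removal of trends on mean expression and gene length. The removal of trends on GC content and gene length was added after seeing the data. No sign of a value past 2-fold was reversed. At 5 μM Reb, the members at least 2-fold higher went from 13 to 6 with library totals, 6 without mitochondrially encoded genes and 5 in RPKM, and those at least 2-fold lower from 4 to 8, 7 and 8. The median member there went from 0.69 to 0, 0.15 and 0 in the same 3 settings, where the median gene stood at -0.75, -0.6 and -0.71. It was 0.54 with the upper quartile, 0.49 without a filter, 0.32 without the trends on expression and length and 0.85 without those on GC content and length. The share of all genes past 2-fold was computed with TMM on the filtered genes only. At 1 μM, RPKM with 0.1 added left 0 members at least 2-fold higher. With CDK16-sh1, no filter gave 2 members at least 2-fold higher, and the GC and length correction gave 0 higher and 1 lower. With CDK16-sh2, the count of members higher went from 1 to 0 with library totals, in RPKM and without the trends on expression and length, and the GC and length correction gave 2 higher and 1 lower. Its median went from 0.13 to -0.07 with library totals and in RPKM and to 0.02 without mitochondrially encoded genes. The scaling shifts come from the scale factors themselves, and for the other settings the cause was not tested. In the fit across Reb libraries, dose as a linear term called 7 members higher in place of 0. The fit with both doses as 1 group called 11 genes higher and 1 lower, DESeq2 14 and 4, library totals 0 and 0, and no filter 3 and 0.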
